A study of Mus musculus with 8 samples.

Results

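The effect of valproic acid (VPA) on messenger RNA was measured in mouse small intestinal organoids as a main effect, that is, over organoids without and with the GSK3 inhibitor CHIR99021 at once. All 8 arrays of the series enter it. The 4 with VPA (2 with VPA alone and 2 with CHIR99021 plus VPA) were set against the 4 without (2 of control medium and 2 with CHIR99021 alone), with CHIR99021 state and organoid line as covariates. The cultures came from 2 wild-type organoid lines that had been established independently, grown in Matrigel for 6 days, with CHIR99021 at 3 µM and VPA at 1 mM wherever a compound was present. Organoid lines of this kind are grown from crypt epithelium without the mesenchyme, immune cells or nerves of the gut wall. The 4 arrays on either side of the comparison rest on 2 lines.

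VPA, a drug against seizures, is a short fatty acid with a branched chain. It inhibits class I histone deacetylases, the enzymes that take acetyl groups off histone tails, and acetylated histones go with open chromatin. As a fatty acid it is also joined to coenzyme A and carnitine and enters the mitochondrial pathways that break fats down. In crypt culture, stem cells that carry Lgr5 divide and give rise to absorptive enterocytes and to the secretory Paneth, goblet, enteroendocrine and tuft cells. The study's title names the purity of such stem cells and of their progeny, and this comparison asks which genes VPA moved whatever the CHIR99021 state.

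Each array carried the sample's RNA in Cy5 and control RNA of the same line in Cy3, so values are log2 ratios to that line's control. The control arrays held control RNA in both dyes. Their spread leaves out differences between control cultures, and a control ratio away from 0 is a property of the probe in the 2 dyes that the difference with minus without VPA subtracts. Each slide held 1 line and all 4 treatments, and each treatment had the same position on both slides, so array position and treatment cannot be told apart. Cy5 signal was well above background for 60.6% to 64.6% of probes on each array. Over genes the ratio had an SD of 0.203 and 0.230 on the control arrays and of 0.380 and 0.416 on those with CHIR99021. VPA arrays had 0.489 and 0.564, and those with both compounds 0.543 and 0.678. A gene is called here if its adjusted p (limma's moderated test, Benjamini-Hochberg over all genes) was under 0.05, and "rose" and "fell" are used only of called genes.

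Of 19255 genes tested, 6937 (36%) were called. With VPA 3686 rose (19.1%) and 3251 fell (16.9%). Most shifts were small: 468 of the rises and 209 of the falls passed 2-fold, and 64 and 31 passed 4-fold. The median over all genes was 0.01 on the log2 scale. For 6802 of the 6937 called genes all 4 differences, 1 for each line and CHIR99021 state, had the same sign. The coefficient is the mean of these 4 differences and is called where they agree. Agreement in sign among called genes thus follows from the selection and is no separate support. Over all genes, called ones included, 25.6% had all 4 positive and 24.8% all 4 negative. Over all genes, 13.5% had all 4 arrays with VPA above all 4 without, and 10.7% had the reverse. Fitted on line 1 alone the count was 4511, and on line 2 alone 4600, each with 1 residual degree of freedom.

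**Figure D1:**
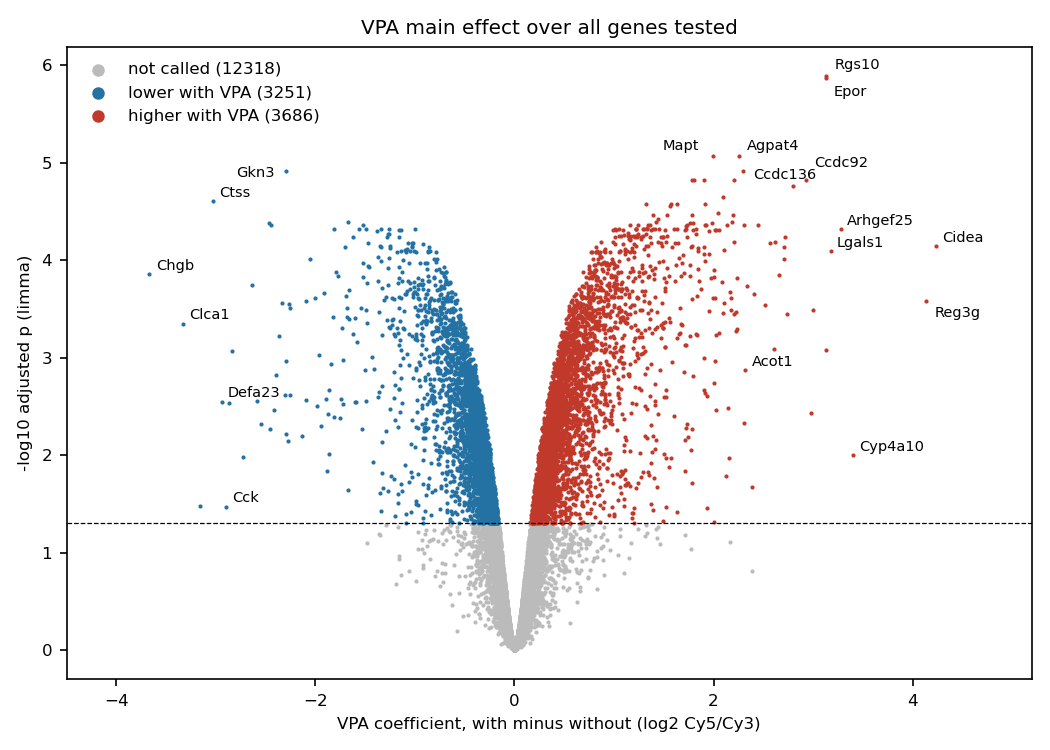
The log2 difference with minus without VPA (horizontal) against −log10 of limma's adjusted p (vertical) for the 19255 genes tested, 1 point a gene, with the dashed line at the threshold of 0.05. Rgs10 and Epor stand at the top right, at 3.13, and Cidea, at 4.24, lies farthest to the right, while Chgb, at -3.67, lies farthest to the left.

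The most evenly induced genes, those of smallest adjusted p, were Rgs10, which speeds the switching-off of G protein signals, and Epor, the receptor for the red cell hormone erythropoietin. Among those that fell, Ctss, a lysosomal cysteine protease that trims the invariant chain of MHC class II, and Gkn3, a gastrokine known as an intestinal stem cell marker, had the smallest adjusted p. The 250 bases before the RefSeq start of each of these 4 genes are shown because their ratios moved together on all 4 arrays with VPA. They come from RefSeq on GRCm38.p6 and run 5′ to 3′ on the gene's own strand. Capitals mark every GGGCGG (the core of the GC box that Sp1-family factors bind) and every TATAAA, on either strand. TATAAA is the sequence of the TATA box, but strand and place of a match were not weighed. Rgs10 lies at chr7:128418173-128418422 on the minus strand, Epor at chr9:21963577-21963826 on the minus strand, Ctss at chr3:95526536-95526785 on the plus strand and Gkn3 at chr6:87388936-87389185 on the minus strand.
Rgs10: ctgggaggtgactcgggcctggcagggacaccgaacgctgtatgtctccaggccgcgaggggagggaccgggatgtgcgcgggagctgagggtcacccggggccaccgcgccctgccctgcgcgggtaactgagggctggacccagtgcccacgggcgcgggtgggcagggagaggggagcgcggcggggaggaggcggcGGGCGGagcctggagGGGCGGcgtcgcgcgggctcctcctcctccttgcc
Epor: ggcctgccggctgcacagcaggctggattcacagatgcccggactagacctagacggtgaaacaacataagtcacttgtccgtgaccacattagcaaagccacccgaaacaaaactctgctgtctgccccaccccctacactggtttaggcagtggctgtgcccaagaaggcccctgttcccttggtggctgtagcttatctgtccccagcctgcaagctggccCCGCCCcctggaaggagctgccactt
Ctss: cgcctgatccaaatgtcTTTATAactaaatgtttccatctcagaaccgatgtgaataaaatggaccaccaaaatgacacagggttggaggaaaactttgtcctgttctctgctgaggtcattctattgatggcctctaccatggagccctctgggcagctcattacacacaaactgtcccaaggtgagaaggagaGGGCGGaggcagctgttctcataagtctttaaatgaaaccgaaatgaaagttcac
Gkn3: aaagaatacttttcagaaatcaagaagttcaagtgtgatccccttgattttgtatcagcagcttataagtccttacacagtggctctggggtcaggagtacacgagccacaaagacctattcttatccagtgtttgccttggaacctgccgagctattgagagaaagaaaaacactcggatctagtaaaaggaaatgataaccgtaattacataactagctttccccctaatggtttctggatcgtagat
The Rgs10 stretch was 76.4% G or C with 27 CpG pairs and 2 GGGCGG matches. That of Epor was 58.8% G or C, with 6 CpG pairs and 1 match. Ctss had 44.8%, 4 CpG pairs, 1 GGGCGG and 1 TATAAA, and Gkn3 had 40.8%, 5 CpG pairs and neither motif. The TATAAA of Ctss lies on the opposite strand, near the end of the stretch farthest from the start. It is a sequence match and is not taken as a TATA box.

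In line 1 the Rgs10 ratio was -0.01 in control, 0.31 with CHIR99021, 3.16 with VPA and 3.29 with both, and in line 2 it was -0.11, 0.18, 3.07 and 3.38 in the same order. All 4 arrays with VPA lay within 0.31 of each other and far above the rest. The difference was 3.13 ± 0.06 (log2, SE, n = 4 and 4 arrays), or 8.76-fold (limma, adjusted p = 1.3e-06). Epor ran from -0.04 to 0.03 on the 4 arrays without VPA and from 3.04 to 3.26 on the 4 with it. Its difference was 3.13 ± 0.07, or 8.73-fold (limma, adjusted p = 1.3e-06), and CHIR99021 alone left it at 0.03 and -0.04. Mapt, the microtubule protein tau, had ratios of 0.36, 0.20, 2.23 and 2.26 in line 1 and 0.26, 0.13, 2.28 and 2.14 in line 2, a rise of 1.99 ± 0.06. Agpat4, which acylates lysophosphatidic acid, rose by 2.25 ± 0.07 and Ccdc136 by 2.29 ± 0.08, with both groups apart in each case. 

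Cidea, a protein of lipid droplets best known from brown fat, had the highest coefficient. Its ratios were 0.23 in control, 0.51 with CHIR99021, 3.71 with VPA and 4.25 with both in line 1, and 0.16, 1.34, 5.57 and 5.66 in line 2. The rise was 4.24 ± 0.28, or 18.8-fold (limma, adjusted p = 7.2e-05), and line 2 stood above line 1 on both arrays with VPA. Reg3g, a secreted lectin that kills Gram-positive bacteria, went a different way with CHIR99021: 0.49, -2.70, 3.80 and 3.11 in line 1, and 0.56, -2.29, 3.87 and 1.82 in line 2. Every array with VPA was above every array without, and the difference was 4.14 ± 0.39 (17.6-fold, adjusted p = 0.00026 by limma). Reg3 lectins are related in sequence, and whether their probes share signal was not tested.

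Among the other genes of the 12 largest rises, Arhgef25, a guanine nucleotide exchange factor, rose by 3.28 ± 0.18 and Arhgap22, a GTPase-activating protein, by 2.80 ± 0.11. Tubb6, a beta tubulin, was at -0.03 and 0.00 in control and 0.88 and 0.17 with CHIR99021 in lines 1 and 2. With VPA alone it reached 4.45 and 1.93, and with both compounds 4.69 and 2.46, so the shift in line 1 was the larger. Its coefficient was 3.13 ± 0.39. Lgals1, the secreted beta-galactoside-binding galectin-1, stood at 0.53 and 0.54 in control, 1.82 and 1.09 with CHIR99021, 4.09 and 3.15 under VPA and 5.52 and 3.93 with both. It rose by 3.18 ± 0.22 (9.04-fold), with the 2 groups apart. Ccdc92 rose by 2.93 ± 0.11 and Gckr, which holds glucokinase inactive, by 3.00 ± 0.30. Cyp4a10 and Angptl4 complete the 12 and are given with the lipid genes.

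Among the 12 largest falls, Chgb, a granin of hormone granules, had ratios of 0.13, -0.14, -2.95 and -4.94 in line 1 and 0.16, 0.03, -2.92 and -3.67 in line 2. It fell by 3.67 ± 0.29 on the log2 scale, which is 12.7-fold (limma, adjusted p = 0.00014). Ctss was at 0.10 in both controls, at -0.36 and -0.16 with CHIR99021, at -2.50 and -3.08 with VPA and at -3.33 and -3.50 with both, a fall of 3.03 ± 0.13 (8.14-fold). Gkn3 lay between 0.12 and 0.36 without VPA and between -2.20 and -1.85 with it, and fell by 2.29 ± 0.08. Lxn, an inhibitor of carboxypeptidases, fell by 2.47 ± 0.12, and a dimmer probe of it gave -1.65. Msln, mesothelin, stood at -0.00 and 0.13 in control and at 1.18 and 1.11 with CHIR99021, but at -2.69 and -1.68 with VPA and -3.21 and -1.34 with both. Its coefficient was -2.83 ± 0.35.

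In other large falls the ratios were less even across arrays. Clca1, a goblet cell mucus protein, was at 0.14, -1.91, -4.04 and -5.99 in line 1 and at 0.19, -2.18, -1.85 and -5.22 in line 2. The VPA array of line 2 overlapped the CHIR99021 arrays, and the coefficient of -3.33 ± 0.36 is a difference within each CHIR99021 state. Mptx1, a pentraxin of Paneth cells, and Ccl6, a chemokine, also had overlapping groups, with -2.86 ± 0.47 and -2.64 ± 0.22. Afp, alpha-fetoprotein, dropped to -6.55 with VPA and -6.66 with both in line 1, where control was 0.12 and CHIR99021 -2.14. In line 2 it was 0.38, 0.02, -0.35 and -0.70. The Afp coefficient was -3.16 ± 0.94 (limma, adjusted p = 0.033), and the call ended without any 1 of the 4 arrays of line 1 (-2.92 to -2.18, adjusted p 0.060 to 0.10 by limma) and without the replicate block (adjusted p = 0.19). Whether the lines differ in their response was not tested, since 1 array a line and treatment leaves no error for it.

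**Figure D2:**
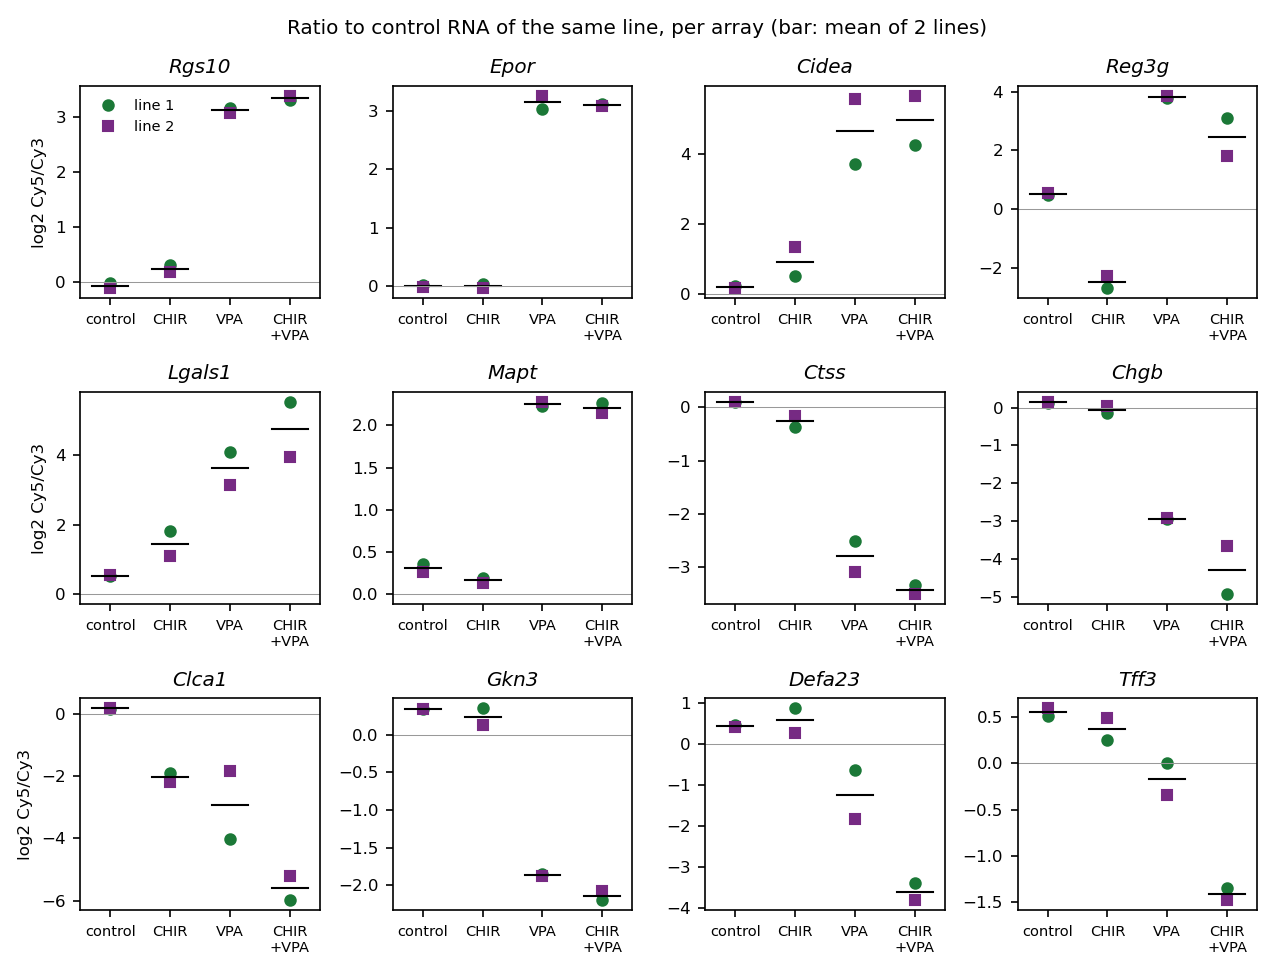
The log2 Cy5/Cy3 ratio (vertical) of 12 genes in each of the 4 treatments (horizontal), 1 symbol per line (circle, line 1; square, line 2) with a bar at the mean of the 2 lines. Rgs10 and Epor form 2 levels, near 0 and near 3, while Clca1, Defa23 and Tff3 step down further when CHIR99021 is present with VPA.

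Brightness bore on how many genes were called. Sorted by mean brightness into 5 bins of 3851 genes, 7.74% rose and 2.80% fell in the dimmest bin. The shares were 14.8% and 11.4% in bin 2, 24.9% and 20.8% in bin 3, 25.4% and 23.7% in bin 4, and 22.9% and 25.8% in the brightest. Rises outnumbered falls in the 4 dimmer bins and falls outnumbered rises in the brightest. Dim probes lie close to background, which shrinks their ratios.

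**Figure D3:**
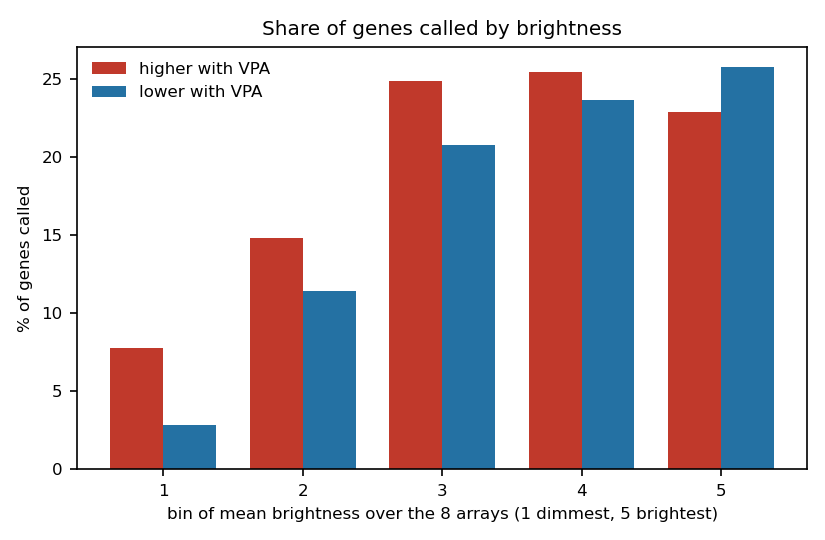
The percent of genes called higher (red) or lower (blue) with VPA in each of 5 bins of mean brightness over the 8 arrays, from the dimmest (1) to the brightest (5), with 3851 genes a bin. The red bar goes from 7.74% in bin 1 to 25.4% in bin 4 and the blue bar from 2.80% in bin 1 to 25.8% in bin 5.

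Of 16 histone deacetylases and sirtuins tested, 2 rose (12.5%, against 19.1% of all genes) and 4 fell (25%, against 16.9%), with a median of 0.05. Hdac7, a class IIa deacetylase, had ratios of 0.05, 0.09, -1.03 and -1.08 in line 1 and 0.05, 0.25, -0.73 and -0.59 in line 2, and fell by 0.97 ± 0.08. Sirt1, an NAD-dependent deacetylase of the nucleus, was between 0.47 and 0.76 without VPA and between -0.57 and -0.23 with it, a fall of 1.01 ± 0.09. Hdac11 fell by 0.56 ± 0.13 and Hdac10 by 0.28 ± 0.06. The Hdac10 call ended without the CHIR99021 array of line 2 (-0.25, adjusted p = 0.053 by limma) and, like that of Hdac11, without the replicate block (limma, adjusted p = 0.062 and 0.087). The rises were Sirt3, the main mitochondrial deacetylase, at 0.41 ± 0.08, and Sirt7 at 0.24 ± 0.05.

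Acetyltransferases, bromodomain readers and corepressor subunits leaned downward: 14 of 37 fell (37.8%, against 16.9% of all genes). In the other direction 4 rose (10.8%, against 19.1%), and the median was -0.19. Mta3, a subunit of the NuRD complex that pairs deacetylase with remodelling activity, fell by 0.92 ± 0.06, with -0.55 from another probe. The acetyltransferases Kat2b and Kat5 fell by 0.55 ± 0.08 and 0.42 ± 0.06. Among the rises were Rcor2 (0.73 ± 0.21), Sap30 (0.58 ± 0.11) and Sin3a (0.23 ± 0.06), all corepressor subunits. The Rcor2 call ended without VPA or CHIR99021+VPA of line 1, or CHIR99021 or VPA of line 2 (0.59 to 0.78, adjusted p 0.063 to 0.090 by limma), and that of Sin3a without CHIR99021 of line 1 (0.22, limma adjusted p = 0.060). Without the replicate block both calls ended (limma, adjusted p = 0.19 and 0.064). Of the linker and variant histones only 2 were tested. H1f0, the linker histone that accumulates in non-dividing cells, was at -0.60 and -0.54 in control, -0.66 and -0.71 with CHIR99021, 0.42 and 0.29 under VPA and 0.69 and 0.41 with both. It rose by 1.08 ± 0.09 (limma, adjusted p = 0.00017).

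Genes of neurons were examined because deacetylase inhibitors are known to raise some of them outside the nervous system. Of 36 cytoskeletal, vesicle and channel genes tested, 11 rose (30.6%, against 19.1% of all genes) and 4 fell (11.1%, against 16.9%). The median was 0.07. Mapt led the rises, and Rab3a, a GTPase of secretory vesicles, rose by 0.72 ± 0.06. Celf3, an RNA-binding protein, fell by 1.73 ± 0.19, Nefh by 0.79 ± 0.21, Syn1 by 0.26 ± 0.06 and Bsn by 0.25 ± 0.06. Nefh was at -0.04 and -0.06 with VPA in line 1 and at -1.15 and -1.11 in line 2. Its call ended without any 1 array of line 2 (-0.69 to -0.62, adjusted p 0.066 to 0.076 by limma) and that of Bsn without CHIR99021 of line 2 (-0.22, limma adjusted p = 0.052). Without the replicate block the calls of Nefh and Syn1 ended (limma, adjusted p = 0.073 and 0.052). Of 10 genes of GABA breakdown and of mitochondrial enzymes that valproate is known to affect, 1 rose (10%, against 19.1% of all genes). It was Abat, the GABA transaminase, which rose by 1.41 ± 0.21. CHIR99021 moved Abat the other way, to -1.89 and -2.29 alone, so its groups overlapped.

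Fatty acid breakdown was the list with the highest share of rises. Of 40 mitochondrial and peroxisomal enzymes and carriers tested, 27 rose (67.5%, against 19.1% of all genes) and 2 fell (5%, against 16.9%). The median was 0.47. Acot1, a cytosolic acyl-CoA thioesterase, had ratios of -0.04, 0.74, 3.27 and 2.11 in line 1 and -0.09, 0.05, 2.91 and 1.64 in line 2. It rose by 2.32 ± 0.32. Slc25a20, which carries acylcarnitines into mitochondria, was between -0.53 and -0.19 without VPA and between 0.59 and 1.44 with it, a rise of 1.31 ± 0.11. Acadl, the long-chain acyl-CoA dehydrogenase, rose by 1.30 ± 0.12 and Crot, the peroxisomal carnitine octanoyltransferase, by 1.08 ± 0.09, with 0.71 from another probe. The falls were Eci1, a mitochondrial enoyl-CoA isomerase, at -0.54 ± 0.06, and Acox2, the peroxisomal oxidase of branched chains and bile acid precursors, at -0.53 ± 0.10. The list's median was 0.60 without CHIR99021 and 0.31 with it.

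Among 38 genes of lipid handling that PPAR receptors are known to control, 14 rose (36.8%, against 19.1% of all genes). A single 1 fell (2.63%, against 16.9%), and the median was 0.28. Cidea led the list. Cyp4a10, a fatty acid omega-hydroxylase, was at 0.31, 0.34, 4.72 and 0.45 in line 1 and 0.19, -0.03, 5.57 and 3.66 in line 2. The array with both compounds in line 1 sat 0.11 above the CHIR99021 array of that line, so the coefficient of 3.40 ± 0.75 (limma, adjusted p = 0.0100) rests mostly on the other 3. Left out 1 at a time, CHIR99021 or CHIR99021+VPA of line 1 and control of line 2 moved it to 4.09, 4.36 and 2.77. Other probes of Cyp4a10 gave 2.33 and 1.29. Angptl4, which inhibits lipoprotein lipase, stood at 2.66 and 5.26 with VPA and at 2.31 and 3.25 with both, against 0.82 or less without, and rose by 2.98 ± 0.52. Without VPA of line 2 that was 2.33. Acsl4, an acyl-CoA synthetase that prefers arachidonate, rose by 1.85 ± 0.14, with 0.91 from another probe, and Pex11a, a peroxisome division factor, by 1.15 ± 0.10. Rxra, the partner receptor of the PPARs, was the 1 that fell (-0.49 ± 0.07).

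Of 34 enzymes that build sterols and fatty acids, 4 rose (11.8%, against 19.1% of all genes) and 6 fell (17.6%, against 16.9%), with a median of -0.05, so the share that fell was near that of all genes. Acacb, the acetyl-CoA carboxylase of the mitochondrial surface, was at 2.59 and 2.20 with VPA, 1.87 and 1.68 with both, and between -0.25 and 0.03 without. It rose by 2.18 ± 0.11, while another probe gave -0.01. Me1, which makes NADPH in the cytosol, rose by 2.15 ± 0.36, Elovl5, a fatty acid elongase, by 1.02 ± 0.12 and Dhcr7, of cholesterol synthesis, by 0.51 ± 0.11. The Dhcr7 call ended without the replicate block (limma, adjusted p = 0.084).

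**Figure D4:**
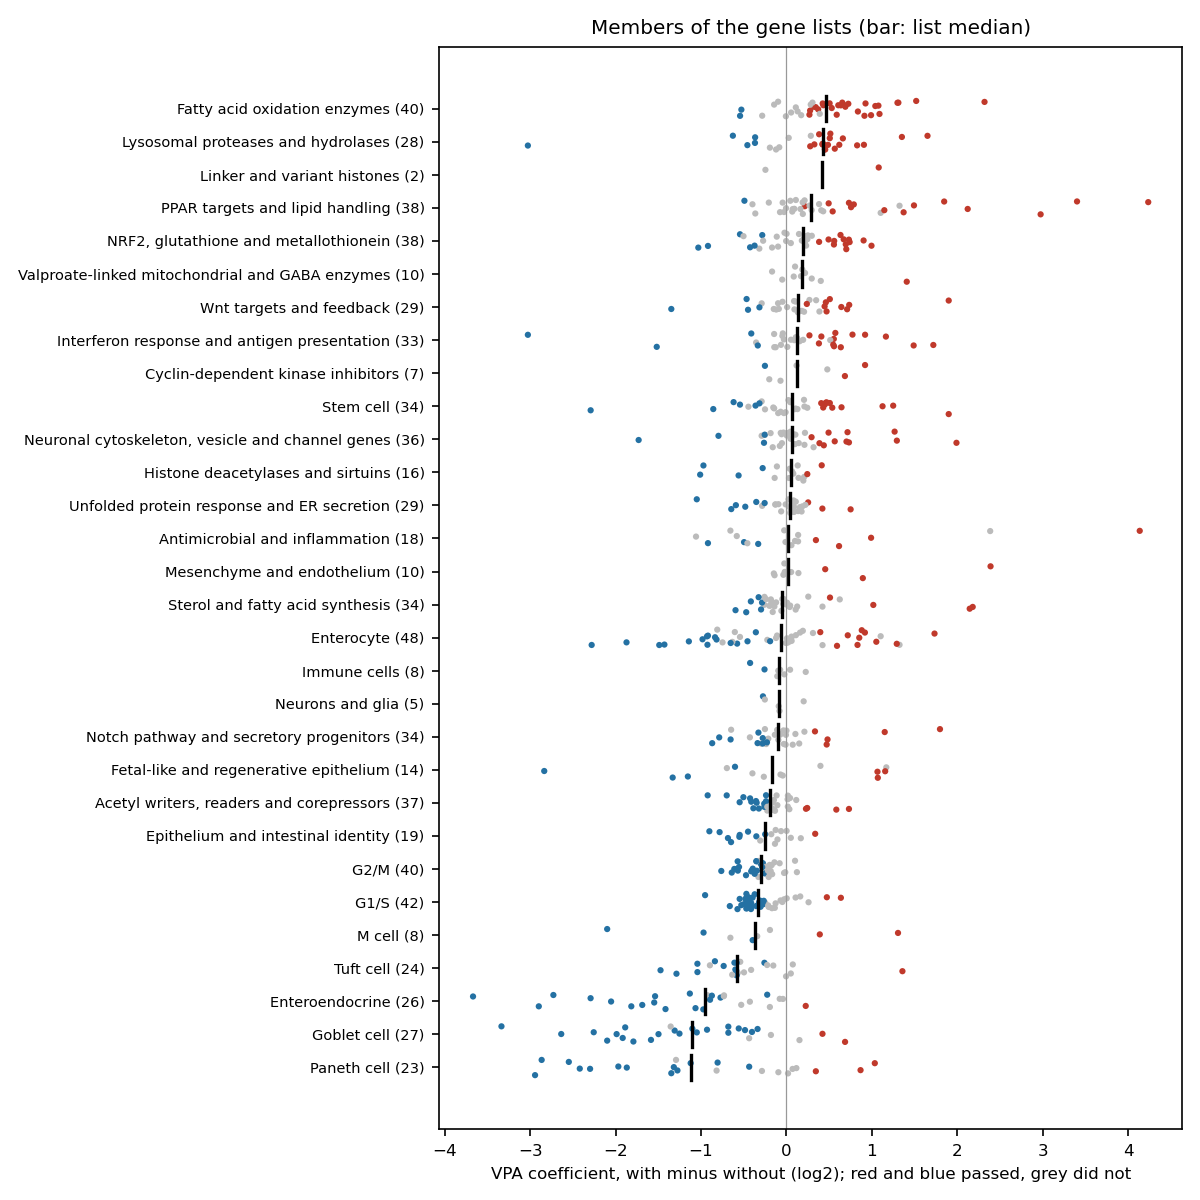
The log2 difference with minus without VPA (horizontal) for each tested member of the 30 gene lists (rows, ordered by median, number tested in brackets), with red for rises, blue for falls, grey for genes not called, and a black bar at the list's median. Fatty acid oxidation is at the top (median 0.47) and Paneth cell at the bottom (-1.12), while Ctss, at -3.03, stands alone on the left in both lists that hold it.

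At least 50% of the tested markers of each of the 4 secretory cell types fell. In bulk RNA fewer cells of a type and less RNA per cell cannot be told apart, here or for the other cell types. Of 27 goblet cell genes, 21 fell (77.8%, against 16.9% of all genes) and 2 rose (7.41%, against 19.1%), with a median of -1.10. Spdef, the transcription factor of goblet and Paneth maturation, had ratios of -0.09, -0.50, -1.32 and -2.59 in line 1 and -0.02, -0.41, -1.95 and -2.83 in line 2. It fell by 1.92 ± 0.17 (limma, adjusted p = 0.00022), with the 2 groups apart. Creb3l4, a membrane-bound transcription factor, fell by 1.79 ± 0.14, Tpsg1, a tryptase, by 1.50 ± 0.08, and Fcgbp, a mucus protein, by 1.31 ± 0.12. Tff3, the trefoil peptide secreted with mucus, was at 0.01 and -0.34 with VPA alone and at -1.34 and -1.48 with both. It stood between 0.25 and 0.60 without VPA, and fell by 1.25 ± 0.21. The rises were Muc4, a membrane mucin, at 0.69 ± 0.06, and Galnt12, which starts O-glycans, at 0.42 ± 0.07.

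Of 26 enteroendocrine genes tested, 17 fell (65.4%, against 16.9% of all genes) and 1 rose (3.85%, against 19.1%), with a median of -0.95. Chga, the granin beside Chgb, was at -3.67 and -4.04 with VPA and with both in line 1 and at -1.63 and -1.72 in line 2, against -1.29 to 0.04 without, and fell by 2.29 ± 0.30. Tph1, the serotonin-making hydroxylase of enterochromaffin cells, fell by 1.82 ± 0.10, with -0.47 from a dimmer probe. Cplx2, a complexin of vesicle release, fell by 2.05 ± 0.15, and its other probes gave -0.50, -0.72 and -0.05. Cck and Nts encode hormones. Cck was at -4.09 and -4.46 on the arrays with VPA of line 1, and at 0.42 and 0.17 on those of line 2, where control was 0.55 and CHIR99021 1.14. Its coefficient of -2.90 ± 0.86 lost its call without any 1 array of line 1 (-2.43 to -2.19, adjusted p 0.095 to 0.10 by limma), without the replicate block (0.11) and with the interaction term (0.052), and line 2 alone gave -0.55. Nts stood at -4.40 and -4.39 in line 1 and -1.19 and -1.08 in line 2, and fell by 2.73 ± 0.60. Pcsk1, a prohormone convertase, was the 1 that rose (0.23 ± 0.07). Its call ended without any 1 array except CHIR99021+VPA of line 2 (0.16 to 0.26, adjusted p 0.056 to 0.14 by limma) and without the replicate block (limma, adjusted p = 0.091).

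Of 23 Paneth cell genes tested, 13 fell (56.5%, against 16.9% of all genes) and 3 rose (13.0%, against 19.1%). The median was -1.12. The alpha-defensins, antimicrobial peptides of Paneth granules, are near-identical copies whose probes may share signal. Defa23 was at 0.46, 0.89, -0.64 and -3.40 in line 1 and 0.43, 0.28, -1.84 and -3.82 in line 2, and fell by 2.94 ± 0.48. Defa20 and Defa22 fell by 2.55 ± 0.47 and 1.97 ± 0.25, and Defa20 stood at -1.96 without CHIR99021+VPA of line 1. Lyz1, lysozyme, and Mmp7, the protease that activates defensins, were called, at -1.32 ± 0.35 and -1.35 ± 0.37, with overlapping groups. Both were higher with CHIR99021 alone (0.81 to 0.98) than in control and, with VPA alone, near or above control in line 1 (0.03 and 0.49) but not in line 2 (-1.11 and -1.12). The Lyz1 call ended without CHIR99021 or CHIR99021+VPA of line 1, or any of the 3 treated arrays of line 2 (-1.29 to -0.99, adjusted p 0.055 to 0.073 by limma). That of Mmp7 ended without the same 5 arrays or control of line 2 (-1.37 to -1.02, adjusted p 0.052 to 0.078 by limma). Ang4, a microbicidal ribonuclease, was not called at -1.29 ± 0.43 (limma, adjusted p = 0.051), though without control or VPA of line 1, or control of line 2, it passed (-1.68 to -1.54, adjusted p 0.021 to 0.045 by limma). Nupr1, a stress-induced cofactor, fell by 1.12 ± 0.12. Slc30a2, a zinc carrier (1.03 ± 0.20), Fgfrl1 (0.87 ± 0.07) and Copz2 (0.34 ± 0.08) rose. The Copz2 call ended without CHIR99021 of line 2 (0.32, limma adjusted p = 0.054).

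Of 24 tuft cell genes, 12 fell (50%, against 16.9% of all genes) and 1 rose (4.17%, against 19.1%), with a median of -0.58. The median without and with CHIR99021 was -1.21 and -0.55 in line 1 and -0.21 and -0.18 in line 2, and it ranged from -1.32 to -0.23 over the alternative settings. Lrmp was between -1.06 and -0.26 without VPA and between -2.56 and -1.63 with it, and fell by 1.47 ± 0.09. Trpm5, the cation channel of taste and tuft cells, fell by 0.84 ± 0.13. Dclk1, the usual tuft marker, was not called, at -0.90 ± 0.32 (limma, adjusted p = 0.064). Its ratios were 0.05, -1.34, -1.99 and -2.55 in line 1 and 0.17, 0.01, 0.04 and -0.19 in line 2, and without control or CHIR99021+VPA of line 2 it passed (-1.18 to -1.17, adjusted p 0.022 to 0.029 by limma). Other Dclk1 probes gave -0.78, -0.50, -0.08, -0.04 and 0.01. Plcg2, a phospholipase downstream of many receptors, went against the list with 1.36 ± 0.14. Of 8 M cell genes tested, 2 rose (25%, against 19.1% of all genes) and 3 fell (37.5%, against 16.9%). The rises were Anxa5 (1.31 ± 0.16) and Tnfrsf11a, the RANK receptor (0.39 ± 0.06, with 0.14 from another probe). The falls were Ccl9 (-2.10 ± 0.20), Spib (-0.97 ± 0.18) and Pglyrp1 (-0.39 ± 0.09). The calls of Spib and Pglyrp1 ended without the replicate block (limma, adjusted p = 0.065 and 0.072).

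Enterocyte genes split: of 48 tested, 10 rose (20.8%, against 19.1% of all genes) and 16 fell (33.3%, against 16.9%), with a median of -0.06. Dpp4, a brush border peptidase, fell by 0.98 ± 0.09, from between -0.26 and 0.03 without VPA to between -1.44 and -0.88 with it, and other probes gave -0.98 and -0.41. Ada, which deaminates adenosine, rose by 0.85 ± 0.09. Dgat2, of triglyceride synthesis, rose by 0.83 ± 0.07, and as CHIR99021 lowered it to -0.84 and -1.04 its groups overlapped. The enterocyte markers Alpi and Sis were not called, at 0.01 ± 0.13 and -0.60 ± 0.28 (limma, adjusted p = 0.97 and 0.13). Fabp1, the fatty acid-binding protein of enterocytes and liver, was not called either, at 1.10 ± 0.55 (limma, adjusted p = 0.16). It stood at 0.36, -0.95, 3.22 and -2.14 in line 1 and 0.49, -2.01, 1.95 and -0.72 in line 2, passed without CHIR99021+VPA of line 1 (1.77, limma adjusted p = 0.0071), and had -0.63 in the Cy5 channel alone.

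Of 34 stem cell markers tested, 11 rose (32.4%, against 19.1% of all genes) and 6 fell (17.6%, near the 16.9% of all genes), with a median of 0.07. Lgr5, the R-spondin receptor that defines crypt stem cells, was not called, at -0.29 ± 0.20 (limma, adjusted p = 0.32). Its ratios were 0.36, 1.28, 0.24 and 0.37 in line 1 and -0.13, 0.74, -0.52 and 1.02 in line 2, and without CHIR99021+VPA of line 2 it passed with -0.51 (limma, adjusted p = 0.040). Ascl2, the transcription factor of stem cell identity, fell by 0.32 ± 0.08. The Ascl2 call ended without control or CHIR99021+VPA of line 1, or CHIR99021 or VPA of line 2 (-0.29 to -0.26, adjusted p 0.052 to 0.064 by limma). Zbtb38 fell by 0.86 ± 0.08 and Rnf32 rose by 0.54 ± 0.07. Smoc2, a matricellular protein, was called at 0.43 ± 0.12, with 0.16 from another probe, and the call ended without CHIR99021 or VPA of line 1 or control or CHIR99021 of line 2 (0.37 to 0.46, adjusted p 0.052 to 0.082 by limma).

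Of 29 Wnt targets and feedback genes, 9 rose (31.0%, against 19.1% of all genes) and 4 fell (13.8%, against 16.9%). The median was 0.13. Tnfrsf19, a receptor of the TNF family, was raised by either compound: -0.13 and 0.08 in control, 2.44 and 1.23 with CHIR99021, 2.72 and 1.23 under VPA, and 3.53 and 3.74 with both. The VPA coefficient was 1.90 ± 0.29, with overlapping groups. Lef1, a nuclear partner of beta-catenin, lay between 0.03 and 0.22 without VPA and between 0.69 and 1.15 with it, and rose by 0.71 ± 0.10. Id2, an inhibitor of basic helix-loop-helix factors, rose by 0.47 ± 0.06. The falls were Mmp7, Ascl2, Cdx1 (-0.45 ± 0.08) and Bambi (-0.47 ± 0.12), and the Bambi call ended without any 1 array of line 2 (-0.44 to -0.35, adjusted p 0.053 to 0.069 by limma).

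In the Notch pathway, which decides between absorptive and secretory fate, 5 of 34 genes rose (14.7%, against 19.1% of all genes) and 8 fell (23.5%, against 16.9%), with a median of -0.10. Notch3 had ratios of 0.12, 0.56, 2.10 and 2.59 in line 1 and 0.12, 0.60, 1.87 and 2.03 in line 2, a rise of 1.80 ± 0.10. Dtx3, a Deltex ubiquitin ligase, rose by 1.15 ± 0.07, with 0.50 from another probe. The other rises were Hey1 (0.48 ± 0.06), Dtx1 (0.47 ± 0.08) and the ligand Jag2 (0.33 ± 0.07). Dll1, the ligand that secretory precursors show their neighbours, fell by 0.79 ± 0.08, from between -0.62 and -0.12 to between -1.46 and -0.82.

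Genes of cell division were mostly lower. Of 42 genes of the G1/S transition and DNA replication, 27 fell (64.3%, against 16.9% of all genes) and 2 rose. The median was -0.33. Of 40 G2/M genes, 22 fell (55%) and 0 rose (limma), with 0 rises at an unadjusted p under 0.05 as well. For VPA alone in line 1 the list medians were near 0, at -0.08 for G1/S and -0.08 for G2/M. In line 2 without CHIR99021 they were -0.42 and -0.34. With CHIR99021 present they were -0.44 and -0.52 in line 1 and -0.38 and -0.25 in line 2. Tk1, thymidine kinase, was between -0.12 and 0.00 without VPA and at -0.86, -0.94, -1.20 and -0.93 with it, and fell by 0.95 ± 0.08. Kif23, a kinesin of cytokinesis, fell by 0.76 ± 0.11, the mitotic cyclin Ccnb1 by 0.57 ± 0.08 and the kinase Aurka by 0.55 ± 0.08. Other Ccnb1 probes gave -0.17 and -0.29. The rises were Ccne1, cyclin E1 (0.64 ± 0.09), and E2f2 (0.47 ± 0.09). Among 7 cyclin-dependent kinase inhibitors, 2 rose (28.6%, against 19.1% of all genes) and 1 fell (14.3%, against 16.9%). Cdkn2d rose by 0.92 ± 0.07, with -0.19 to -0.10 on the arrays without VPA and 0.67 to 0.89 on those with it. Cdkn1c rose by 0.69 ± 0.20 and Cdkn2b fell by 0.25 ± 0.07. The Cdkn1c call ended without any 1 array of line 1 (0.49 to 0.63, adjusted p 0.077 to 0.10 by limma), and that of Cdkn2b without CHIR99021 or CHIR99021+VPA of line 1 or any 1 array of line 2 (-0.25 to -0.21, adjusted p 0.059 to 0.089 by limma). Without the replicate block both ended (limma, adjusted p = 0.15 and 0.054).

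Lysosomal genes mostly rose. Of 28 proteases, hydrolases and membrane proteins tested, 18 rose (64.3%, against 19.1% of all genes). A further 5 fell (17.9%, near the 16.9% of all genes), and the median was 0.42. Ctsl, a cysteine protease, had ratios of -0.10, 0.96, 1.42 and 2.29 in line 1 and -0.00, 1.09, 2.11 and 2.73 in line 2, and rose by 1.65 ± 0.12. Ctsa, which shields other lysosomal enzymes, rose by 0.83 ± 0.07, with 0.84 and 0.38 from other probes. Beside Ctss, the falls were Gusb (-0.63 ± 0.20), Npc2 (-0.46 ± 0.06), Ctso (-0.37 ± 0.08) and Ctsc (-0.37 ± 0.10). Gusb was at -0.24 and 0.07 with VPA in line 1 and -1.39 and -1.16 in line 2. Its call ended without CHIR99021 of line 1 or any 1 array of line 2 (-0.71 to -0.47, adjusted p 0.058 to 0.12 by limma) and that of Ctsc without CHIR99021 or VPA of line 1 or control or CHIR99021+VPA of line 2 (-0.34 to -0.29, adjusted p 0.055 to 0.072 by limma).

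Of 33 genes of the interferon response and antigen presentation, 13 rose (39.4%, against 19.1% of all genes) and 4 fell (12.1%, against 16.9%). The median was 0.13. Bst2, tetherin, was between 0.21 and 0.89 without VPA and between 1.72 and 2.66 with it, and rose by 1.72 ± 0.09. H2-Q1, an MHC class I gene whose probe may share signal with related class I genes, rose by 1.16 ± 0.07. The falls were Ctss, Psmb10, a subunit of the immunoproteasome (-1.52 ± 0.12), H2-T3 (-0.41 ± 0.09) and Irf9 (-0.33 ± 0.09). The Irf9 call ended without VPA of line 1 or any 1 array of line 2 (-0.35 to -0.26, adjusted p 0.065 to 0.084 by limma). Of 18 antimicrobial and inflammation genes, 4 rose (22.2%) and 3 fell (16.7%), near the 19.1% and 16.9% of all genes, with a median of 0.02. Reg3g, Il18 (0.99 ± 0.26), Tlr2 (0.62 ± 0.17) and Cxcl5 rose, while Pigr, the receptor that carries IgA into the lumen (-0.92 ± 0.10), Duoxa2 (-0.50 ± 0.12) and Ccl28 (-0.33 ± 0.07) fell. The calls of Il18, Tlr2, Duoxa2 and Ccl28 ended without the replicate block (limma, adjusted p = 0.13, 0.11, 0.077 and 0.14). With single arrays left out, that of Il18 ended without CHIR99021 of either line or VPA of line 2 (0.96 to 0.99), that of Tlr2 without any 1 of line 1 (0.45 to 0.57) and that of Duoxa2 without CHIR99021 or VPA of line 2 (-0.42 each).

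Of 38 genes of the NRF2 response, glutathione and metallothioneins, 12 rose (31.6%, against 19.1% of all genes). A further 6 fell (15.8%, near the 16.9% of all genes), and the median was 0.19. The metallothioneins Mt1 and Mt2, near-identical metal-binding proteins, rose by 0.70 ± 0.08 and 1.00 ± 0.14, and Gstp1, a glutathione transferase, by 0.73 ± 0.09. In the unfolded protein response, 3 of 29 genes rose (10.3%, against 19.1% of all genes) and 6 fell (20.7%, against 16.9%), with a median of 0.04. Ern2, the sensor particular to mucus-secreting epithelium, fell by 1.05 ± 0.09 and Dnajc3, a chaperone and kinase inhibitor, by 0.59 ± 0.08, with -0.52, -0.45 and -0.26 from other probes. The rises were the chaperone partners Sdf2l1 (0.75 ± 0.11), Dnajb11 (0.42 ± 0.08) and Pdia6 (0.25 ± 0.08). The Pdia6 call ended without any 1 array of line 1, or CHIR99021 or CHIR99021+VPA of line 2 (0.19 to 0.28, adjusted p 0.061 to 0.094 by limma).

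Markers of the fetal-like and regenerating epithelium divided. Of 14 tested, 3 rose (21.4%, near the 19.1% of all genes) and 4 fell (28.6%, against 16.9%), with a median of -0.17. Beside Msln, Clu, the secreted chaperone clusterin (-1.33 ± 0.32), Ly6d (-1.15 ± 0.20) and Il1rn (-0.60 ± 0.17) fell, and Areg, an EGF receptor ligand (1.07 ± 0.29), Il33 (1.07 ± 0.26) and Tm4sf4 (1.16 ± 0.30) rose. CHIR99021 alone took Clu to 1.44 and 1.02 and Ly6d to 1.73 and 1.75, where with VPA as well they were at -0.76 and -0.90 and at -0.14 and 0.39. Single arrays ended 4 of these calls. For Areg they were any 1 of line 1 or VPA of line 2 (0.79 to 1.06), for Il1rn control, CHIR99021 or VPA of line 1 or CHIR99021 of line 2 (-0.64 to -0.42), for Tm4sf4 the 3 treated arrays of line 2 (0.86 to 1.16), and for Clu CHIR99021+VPA of line 1 or CHIR99021 of line 2 (-1.28 to -1.21). Without the replicate block Areg, Il33 and Tm4sf4 had adjusted p of 0.11, 0.077 and 0.14 (limma).

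The tissue was checked through its markers. Epcam, an adhesion protein of all epithelia, was well above background on all 8 arrays and had a coefficient of 0.00 ± 0.05 (limma, adjusted p = 0.98). Of 19 genes of epithelial and intestinal identity, 9 fell (47.4%, against 16.9% of all genes), with a median of -0.25. The E-cadherin gene Cdh1 was the 1 that rose (0.34 ± 0.06), or 5.26%, against 19.1% of all genes. The intestinal markers Vil1 and Cdx2 were not called, at 0.17 ± 0.13 and -0.13 ± 0.11 (limma, adjusted p = 0.36 and 0.39). Krt18, Krt8 and Krt19, keratins of simple epithelium, fell by 0.68 ± 0.07, 0.55 ± 0.13 and 0.35 ± 0.11, and Cldn3, a claudin, by 0.65 ± 0.06. The Krt19 call ended without any 1 array except CHIR99021+VPA of line 1 (-0.40 to -0.24, adjusted p 0.053 to 0.11 by limma). 

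Markers of other cell types passed the filter in part. Of 17 immune genes, 8 passed and 2 fell (25%, against 16.9% of all genes), Lyz2 (-0.42 ± 0.11) and Csf1r (-0.26 ± 0.05). The T cell gene Cd3e was well above background on all 8 arrays and was not called (-0.02 ± 0.06). The immune marker Ptprc was well above background on 2 of the 4 arrays without VPA and 1 of the 4 with it. For Cd79a these were 2 and 3. Neither was called, at -0.11 ± 0.07 and -0.09 ± 0.06. Other Csf1r probes gave 0.11 and -0.03, and the Lyz2 call ended without CHIR99021 of line 1, or CHIR99021 or VPA of line 2 (-0.43 to -0.33, adjusted p 0.053 to 0.056 by limma). Of 11 genes of neurons and glia, 5 passed the filter on dim probes and 1 fell (20%, against 16.9% of all genes). The neuronal marker Elavl4 was well above background on all 8 arrays and was not called (-0.25 ± 0.14). Of 18 genes of mesenchyme and endothelium, 10 passed and 3 rose (30%, against 19.1% of all genes). Vim, the intermediate filament vimentin, had ratios of 0.04, -0.75, -0.11 and 1.49 in line 1 and -0.00, -0.46, 2.77 and 4.25 in line 2, and was called at 2.39 ± 0.63. The Vim call ended without CHIR99021 or CHIR99021+VPA of line 1 or control, CHIR99021 or VPA of line 2 (1.82 to 2.44, adjusted p 0.052 to 0.066 by limma) and without the replicate block (0.065). Col1a1, a fibrillar collagen, and Pdgfra, a receptor of fibroblasts, were called higher but were not well above background on any of the 4 arrays without VPA, so no size is given. Other probes gave 0.10 and 0.00 for Col1a1 and -0.09 for Pdgfra. The endothelial genes Pecam1 and Cdh5, the collagen gene Col3a1 and the glial gene Gfap did not pass the filter on dim probes. The part of such cells in these values was not tested.

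Some genes were well above background on one side only. Of the 19255 genes tested, 99 were so on all 4 arrays with VPA and on none without, and 84 of these were called higher. The reverse held for 30 genes, of which only 12 were called lower. Over all genes 19.1% were called higher and 16.9% lower. Detection and ratio use the same Cy5 signal, so these calls are no separate support. No fold is given for such genes, since the limit of detection was taken in Cy5 alone and the fold over it exceeded that of the ratio (4.15 against 2.84 for Megf6). With VPA, Megf6, Rhpn1, Rsph1, a protein of cilia, Col1a1, Pdgfra and Cxcl5 were called higher, and another probe of Megf6 gave -0.13. In the other direction, Isl1, a homeobox factor of endocrine cells, and Cc2d2a, of the ciliary transition zone, were called lower. The Isl1 call ended without CHIR99021 or CHIR99021+VPA of line 1 (adjusted p 0.052 and 0.053 by limma).

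The main effect averages over CHIR99021 states, so the VPA difference was also taken within each. Without CHIR99021, 3745 genes were called (19.4%), of which 2096 rose and 1649 fell. With CHIR99021, 3414 were called (17.7%), with 1976 up and 1438 down. Taken as a difference between the 2 states, the VPA effect passed in 0 genes (0%) by limma, with 815 at an unadjusted p under 0.05. Simulated differences of 1 and 2 log2 units between states were called for 50% and 84% of the genes given them in a fit of the same design. The simulated noise was normal and independent between arrays, and only a small set of genes had any VPA effect. These shares therefore need not hold for the real data. A gene that missed the threshold is thus not shown to respond alike in both.

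The genes with the smallest p for that difference mostly had the larger VPA effect without CHIR99021. Cpne5, a copine, was at 0.37 and 0.28 in control and 3.86 and 3.70 with VPA, but at 0.30 and 0.12 with CHIR99021 and 0.85 and 1.29 with both. The effects were 3.46 ± 0.16 and 0.86 ± 0.16, and their difference -2.60 ± 0.23 (limma, adjusted p = 0.33). Other Cpne5 probes gave main effects of 0.40 and 0.06. Acot1 had 3.16 ± 0.15 and 1.48 ± 0.15, and Crip2, a LIM-domain protein, 3.22 ± 0.09 and 2.10 ± 0.09 (adjusted p of both differences 0.45 by limma). Mgll, the lipase that releases fatty acid from monoglycerides, had 1.71 ± 0.15 without CHIR99021 and -0.14 ± 0.15 with it. Its main effect of 0.79 ± 0.35 was not called, it passed without CHIR99021+VPA of line 2 (1.09, limma adjusted p = 0.045), and other probes gave 0.68 and 0.05. Gstm1, a glutathione transferase, went to 1.16 and 0.90 with VPA and to -0.42 and -0.92 with both, effects of 0.96 ± 0.12 and -0.47 ± 0.12.

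Ang4 and Defa23 had the larger VPA effect with CHIR99021 present. The Ang4 effects were -0.16 ± 0.21 and -2.42 ± 0.21, and those of Defa23 were -1.69 ± 0.25 and -4.20 ± 0.25 (limma, adjusted p of the differences 0.45 and 0.48). With CHIR99021 alone, Ang4 stood above control in line 1 (1.13 against 0.46) and in line 2 (1.26 against 0.46). Defa23 did so in line 1 (0.89 against 0.46) but not in line 2 (0.28 against 0.43). Rgs10, Epor and Ctss, by contrast, had 3.17 and 3.09, 3.15 and 3.10, and -2.90 and -3.15 without and with CHIR99021.

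**Figure D5:**
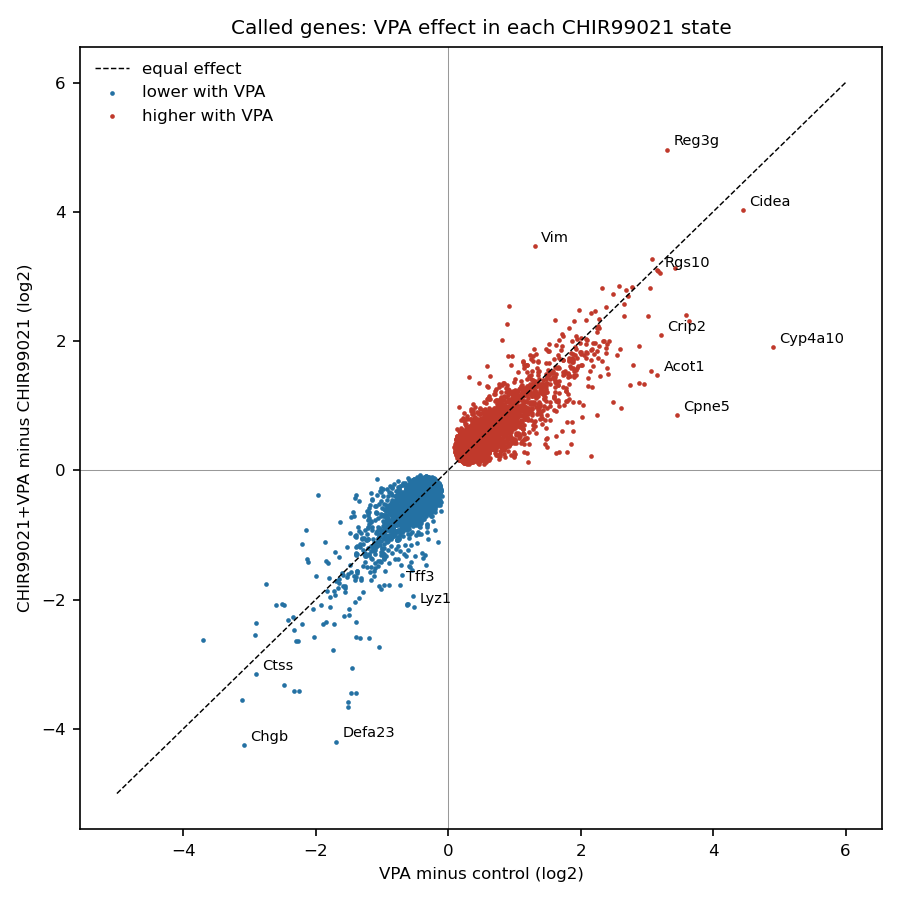
For the 6937 called genes, the VPA effect without CHIR99021 (horizontal, log2) against that with CHIR99021 (vertical, log2), 1 point a gene, with a dashed line where both are equal. Cpne5, Acot1 and Cyp4a10 lie below the line on the right, Reg3g and Vim above it, and Defa23 below it on the left, while Rgs10 sits on it.

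Promoters were compared over the 250 bases before and 50 after the RefSeq start, with motifs sought on both strands. Of the genes that rose and carry a symbol, 80.6% had an entry (2505), and of those that fell 80.6% (2029). GGGCGG, the motif in capitals above, was in 68.1% of promoters of risen genes and 60.3% of those of fallen genes. The share was 59.1% over tested genes with a symbol that had an entry, near that of fallen genes, and 35.9% over all 27025 promoters. The last group also holds genes that were not tested here. TATAAA was in 7.03% and 9.96% of the promoters of risen and fallen genes. It was in 9.24% of those of tested genes and in 14.2% of all. The direct repeat of AGGTCA spaced by 1 base, which PPAR and RXR pairs bind, was in 2 promoters of risen genes, 0 of fallen genes and 12 of all. Under 80% had an entry among genes not called (79.6%) and among risen and fallen genes past 2-fold (77.8% and 75%), so the same comparison is void there. Tested genes with a symbol had one for 79.98%, just under 80%, and serve only as the background share.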

How the data were processed

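Labelling used a two-colour kit and Agilent mouse expression arrays, per the labels. Arrays were read with Feature Extraction 10.5.1.1, which the file headers name. The deposited intensity values used are the median brightness of each spot and its surroundings, per dye, before any subtraction. The deposited log10 ratio of Cy5 over Cy3 was corrected for background and dye by that software. The authors' deposited series table holds log2 values that equal this ratio within 5e-10 after the change of base (19228 spots an array). Its column medians run from -0.028 to 0.036, so scale, centring and direction are those of the software's ratio. Deposited flags of 0 or 1 marked outlier, saturated and background-level spots.

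Each array had 45018 spots, 1639 of them controls, and 0 were saturated. Background was corrected with normexp (limma 3.58.1 in R 4.3.3, offset 50) and each array's ratios were then normalised by loess. Spots that the software marked as feature outliers or with a non-uniform background in either dye (162 to 328 an array) were left out of both steps. Of 41174 probes, 27479 matched a symbol by accession in RefSeq GRCm38.p6, used for names and promoters only, since the array design names mm9. The brightest probe stood for each gene. A gene was tested if its Cy5 signal was well above background on both replicates of some group and no array lacked a value (79 lacked one), which left 19255.

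The main effect was fitted with lmFit and eBayes on VPA, CHIR99021 and line, with 4 residual degrees of freedom, and the effect in each state on the 4 groups and line, with 3. P-values were adjusted over all genes tested by Benjamini-Hochberg. The labels number the organoid lines, and line coincides with slide. Deviations from group means correlated between samples of one line, with r across genes of 0.122 to 0.755 over the 6 pairs of groups. The pairs that include control had 0.122 to 0.245 and the pairs of treated groups 0.551 to 0.755. The line term thus describes the control arrays, with control RNA in both dyes, less well. On simulated data, with normal noise and few genes shifted, the main effect was recovered in 96% of genes shifted by 1 log2 unit. The number of arrays limits the precision.

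Members, the 30 gene lists and the tests were chosen with earlier results of these data known. Named genes were the 12 largest rises and the 12 largest falls with 1 sign in all 4 differences and signal above background in every group, for each list up to 3 called members of lowest adjusted p, the cell markers, the 6 smallest adjusted p, the 4 brightest genes detected on 1 side only, each way, and the 6 smallest adjusted p for the difference between states. Some of these are left out of the text, and list members that went against their list were added after their values were seen. Alternatives covered the block, background, scaling, filter, probes, variance prior and the omission of arrays, lines or states.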

Additional observations from a re-analysis of the deposited data

Results flagged for a closer look

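Within the 4 arrays with VPA or the 4 without, 17 of 336 gene and group pairs had 1 array far from the other 3, with a gap past Dixon's critical value for 4 samples. Chance gives this in about 1 in 20. The array labelled CHIR99021 of line 1 stood apart for Arhgap22 at 0.901 (-0.02 to 0.08 on the others), Afp at -2.14 (0.02 to 0.38), Rcor2 at 1.03, Acsl4 at 1.17, Dhcr7 at 0.748, Dclk1 at -1.34 and Tm4sf4 at -0.978. It also held 34 spots with a non-uniform local background, which were left out. CHIR99021 of line 2 stood apart for Gkn3 at 0.122 (0.34 to 0.36 on the others), Acadl at -0.541 and Dnajb11 at -0.353, and control of line 1 for Cldn3 at 0.187.

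With VPA, the CHIR99021+VPA array of line 1 stood apart for Creb3l4 at -2.45, Celf3 at -1.05, Syn1 at 0.352 and Irf9 at 0.258, that of line 2 for Smoc2 at 1.04, and VPA of line 2 for Dtx1 at 0.716.

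Gstm1 moved in opposite directions in the 2 CHIR99021 states in both lines. Its VPA effect was 0.96 ± 0.12 without CHIR99021 and -0.47 ± 0.12 with it. The difference of -1.42 ± 0.17 did not pass the test over all genes (limma, adjusted p = 0.45).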

How the results depend on the processing

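The 6937 calls of the main effect stayed within 1.5 times under each alternative to block, interaction term, background, scaling, filter, probes and prior (5156 to 7097) and with any 1 array left out (5224 to 6473). The share of rises was 46.1% with Agilent's ratio and 62.7% with median centring, where the median of all genes was -0.03 and 0.05. Fewer arrays gave fewer calls: 4600 in line 2 alone and 4511 in line 1 alone, 1144 in the 4 arrays without CHIR99021, 3294 in the 4 with it and 3815 without both control arrays. That last omission and that of spots with outlying local background (5776) were added after the data were seen.

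Without the replicate block, which ignores the pairing by line, 5156 genes were called for the main effect, 2090 (of 3745) for VPA without CHIR99021 and 1930 (of 3414) with it. With normexp fitted on all spots the effect without CHIR99021 had 2232 calls, and with Agilent's ratio the effect with it had 2257. With 1 array left out, the effect without CHIR99021 had 1151 to 3402 calls: 1739 without control and 1518 without VPA of line 1, 1151 without VPA of line 2, and 2327 without the CHIR99021 array of line 1 or of line 2. The effect with CHIR99021 had 566 to 3815: 608 without CHIR99021 and 856 without CHIR99021+VPA of line 1, and 566 and 2167 without those of line 2. The difference between states was called in 0 genes in all fits run except without CHIR99021+VPA of line 2, with 1 gene (0 to 1).

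Of 168 named genes followed through the alternatives, 161 were called for the main effect and 130 kept the call whichever single array was left out. Alpi, Sis, Vil1, Cdx2, Cd3e, Ptprc, Cd79a and Elavl4, none of them called, were not followed. Signs turned in 4 genes not called: Epcam (-0.0047 without outlying backgrounds, -0.011 in the arrays with CHIR99021 and without controls, -0.011 to 0.020 with arrays left out), Fabp1 (-0.63 in Cy5 alone), and Mgll (-0.14) and Gstm1 (-0.47) in the arrays with CHIR99021 and without controls. The cause was not tested. The median of the fatty acid oxidation list ranged from 0.31 to 0.60 and that of the goblet cell list from -1.42 to -0.71. The enteroendocrine median ranged from -1.62 to -0.80, the Paneth one from -1.21 to -0.61 and the tuft one from -1.32 to -0.23. The medians of the enterocyte (-0.25 to 0.04), sterol and fatty acid synthesis (-0.23 to 0.10), deacetylase (-0.02 to 0.13) and fetal-like (-0.47 to 0.26) lists took both signs, as did those of the antimicrobial, unfolded protein response, mesenchyme and neuron and glia lists.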
